A study of Mus musculus with 6 samples.

Results

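The genes described here make fatty acids and shape them: Acly, Acaca, Fasn, Me1, the elongases Elovl1, Elovl5 and Elovl6, and the desaturases Scd1, Fads1 and Fads2. They were taken by symbol from the deposited gene table, where all 10 were found among 52550 entries, each in 1 row. All 10 had enough counts to be tested, among 17863 genes tested in all. They were measured by mRNA sequencing of macrophages grown for 7 days from bone marrow of C57BL/6 mice in medium with 25 ng/ml of M-CSF, the growth factor that drives macrophage formation. Afterwards 3 samples had received culture medium of apoptotic chondrocytes (AC CM) and 3 had received culture medium of normal chondrocytes (C CM). Chondrocytes are the cells of cartilage, and the single contrast asks what medium of dying ones does to macrophages. How long the medium was left on is not given in the sources used here. Nor is it stated whether samples given the same medium had their own animal or culture, so p-values measure nothing beyond how these samples vary, and that variation may be technical.

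Fatty acid synthesis starts in the cytosol, where citrate is cut to acetyl-CoA, acetyl-CoA is carboxylated to malonyl-CoA, and fatty acid synthase joins these units into palmitate with NADPH as the reductant. Elongases in the endoplasmic reticulum lengthen palmitate and dietary fatty acids, and desaturases place double bonds in them. In macrophages these products go into membrane phospholipids and lipid droplets, and the polyunsaturated branch supplies arachidonic acid, from which prostaglandins and leukotrienes are made. Many of these genes are textbook targets of the transcription factor SREBP1, whose gene is in turn a target of the oxysterol receptor LXR.

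Counts per library summed to between 70802852 and 80105872 in the AC CM libraries and between 65630784 and 68852308 in the C CM libraries. All 10 macrophage markers were tested, and the list summed to between 19945 and 20881 CPM (counts-per-million, on library sizes scaled by TMM) after AC CM and between 21066 and 23121 CPM after C CM, with Mrc1 called higher and Csf1r, Mertk and Cd14 called lower. Some libraries also held transcripts of other cells. A list of 21 hepatocyte markers, led by albumin, summed to 63.9, 720 and 1672 CPM in AC CM replicates 1, 2 and 3, and to 56.7, 3.13 and 1.55 CPM in C CM replicates 1, 2 and 3. AC CM replicates 2 and 3 therefore stand apart, and results for the pathway genes are also given with AC CM replicate 1 as the only AC CM library. Most calls over all genes were lost in that fit, so a lost call there decides nothing by itself. Albumin alone had 38.1, 469 and 971 CPM after AC CM, against 30.1, 1.32 and 0.254 CPM after C CM. Of these 21 markers, 3, 0 and 0 were at 0 in the AC CM libraries, against 1, 12 and 13 in the C CM libraries. Adipocyte markers summed to between 20.9 and 28.5 CPM after AC CM and between 33.2 and 37.6 CPM after C CM, and Plin1, Cfd and Lep among them were at 0 in every library. Most of that sum was Lipe, a lipase gene, with 18.3, 21.3 and 17.3 CPM after AC CM, against 33.3, 29.2 and 34.0 CPM after C CM. Pck1 of the same list, a gene of liver as well as fat, went the other way, with 0.511, 4.4 and 8.39 CPM in AC CM replicates 1, 2 and 3, against 0.198, 0 and 0 CPM after C CM, and was highest where the hepatocyte markers were. Fibroblast markers summed to between 3622 and 3728 CPM after AC CM and between 4480 and 5473 CPM after C CM, with 5 of 8 called lower. Neutrophil markers summed to between 169 and 186 CPM after AC CM and between 824 and 957 CPM after C CM, and dendritic cell markers to between 15.0 and 16.4 CPM after AC CM and between 56.7 and 70.1 CPM after C CM, with 7 of 8 called lower in each list. Chondrocyte markers summed to between 112 and 114 CPM after AC CM and between 75.5 and 89.3 CPM after C CM, with 1 of 8 tested called higher and 1 lower. Among all genes tested, 13.3% were called higher and 13.3% lower. With AC CM replicate 1 alone, the Mrc1 call was lost and fewer macrophage and fibroblast markers were called lower, as most calls over all genes were lost. Most neutrophil and dendritic cell markers were still called lower in that fit, and chondrocyte markers were again called in both directions. In such bulk samples, fewer cells of a type and less RNA per cell cannot be told apart, and the part of these other cells in the results below was not tested.

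None of the enzymes that build palmitate was called different between the media, while genes of the later steps were called in both directions. Elovl6, the elongase that turns palmitate into stearate, was 1.47-fold higher after AC CM. Elovl5, the elongase of polyunsaturated chains, and Fads1, the desaturase whose product is arachidonic acid, were 0.797 and 0.821 times their C CM level. Scd1, the stearoyl-CoA desaturase of liver and fat, varied 6.85-fold between the highest and the lowest AC CM library and was not called. With p-values adjusted over the whole table and a threshold of 0.05, 1 of the 10 genes was higher and 2 were lower, against 13.3% of all genes tested called higher and 13.3% called lower (26.5% in all). The members' share is thus near that of all genes. Their median log2 fold change was -0.04, beside 0 for all genes tested, and their median absolute log2 fold change was 0.26, beside 0.3. For 4 of the 10 genes the AC CM and C CM libraries did not overlap, 2 with AC CM above and 2 with AC CM below, which also holds for 44.7% of all genes tested (22.6% above and 22.1% below).

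**Figure D1:**
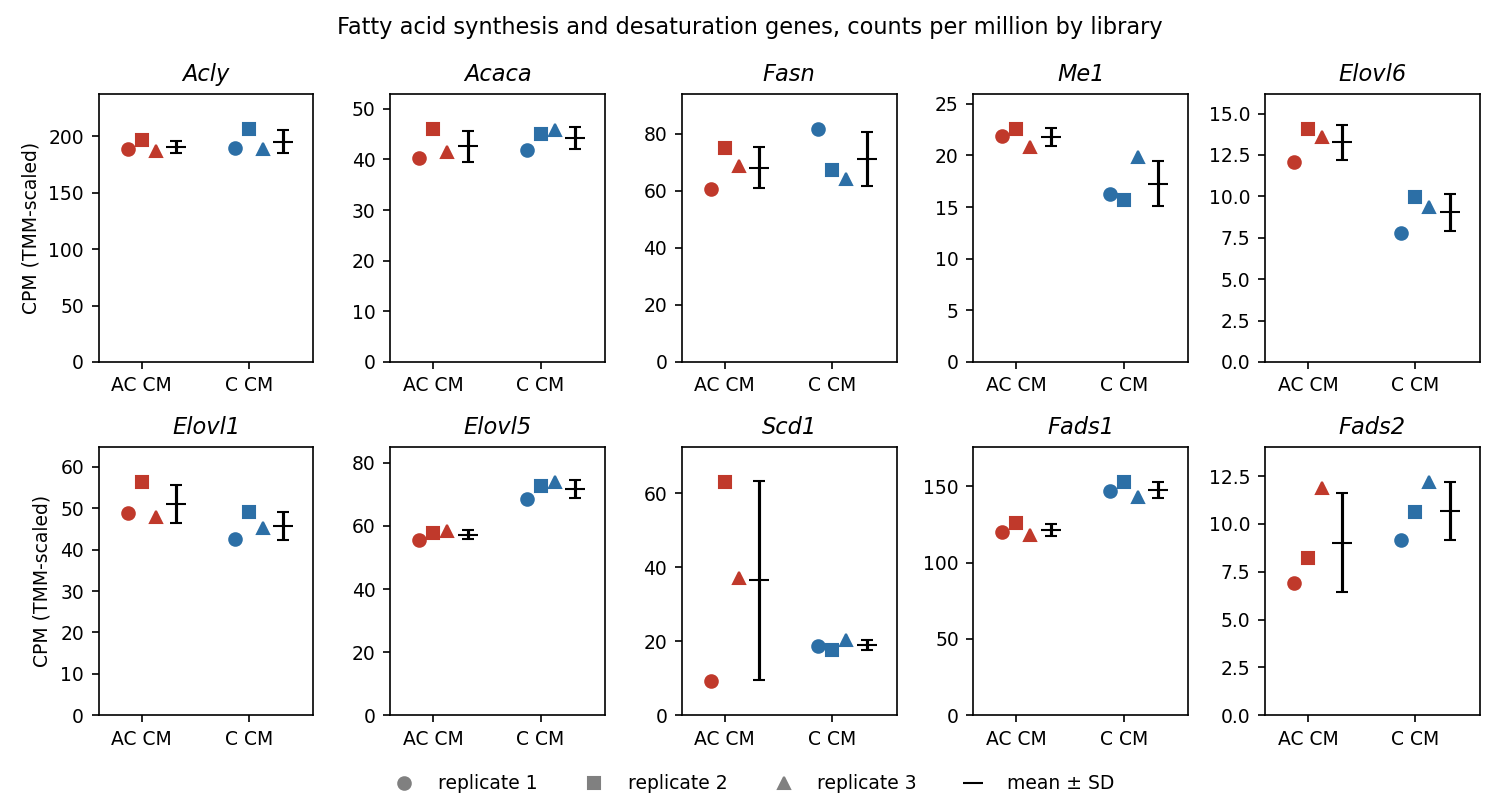
CPM (counts-per-million, scaled by TMM) of each of the 10 genes in the 3 AC CM libraries (red) and the 3 C CM libraries (blue), each panel on its own axis from 0, with the mean ± SD in black beside the points. Elovl6 and Me1 lie higher in every AC CM library than in any C CM library, Elovl5 and Fads1 lie lower, and Scd1 spans 9.21 to 63.1 CPM in the AC CM libraries.

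Of the enzymes of palmitate synthesis itself, none was called. Acly, ATP citrate lyase, cuts citrate to the acetyl-CoA on which synthesis starts (ENSMUSG00000020917.17, chromosome 11, 100476353 to 100528000, minus strand, in the deposited table's coordinates, whose build is not stated there). It had 189, 197 and 187 CPM after AC CM, against 190, 207 and 189 CPM after C CM. The groups overlap almost fully, and the log2 fold change was -0.03, with a 95% interval from -0.17 to 0.12 (adjusted p = 0.791). Acaca, acetyl-CoA carboxylase, makes malonyl-CoA in what is usually the rate-setting step (ENSMUSG00000020532.18, chromosome 11, 84129672 to 84401651, plus strand). It had 40.2, 46.1 and 41.5 CPM after AC CM, against 41.8, 45.0 and 45.9 CPM after C CM. Its log2 fold change was -0.06, with an interval from -0.24 to 0.13 (adjusted p = 0.67). The Acaca value is uncertain, since 47.4% of all 75-base windows of its longest transcript also occur in the transcript of Gm5182. That symbol was not found among the deposited genes, and how such reads were counted is unknown. Fasn, fatty acid synthase, carries out every further step to palmitate (ENSMUSG00000025153.9, chromosome 11, 120805846 to 120824547, minus strand). It had 60.6, 75.2 and 68.8 CPM after AC CM, against 81.9, 67.5 and 64.1 CPM after C CM. The highest and the lowest library of Fasn were both replicate 1, of C CM and of AC CM, and the log2 fold change was -0.06, with an interval from -0.32 to 0.19 (adjusted p = 0.743). The intervals give the changes of Acly, Acaca and Fasn that these libraries leave possible.

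Me1, cytosolic malic enzyme, makes NADPH for Fasn while it returns malate to pyruvate (ENSMUSG00000032418.15, chromosome 9, 86581371 to 86695953, minus strand). It had 21.9, 22.6 and 20.8 CPM after AC CM, against 16.3, 15.7 and 19.8 CPM after C CM. Every AC CM library lay above every C CM library, but the difference missed the threshold, at 0.33 on the log2 scale (SE 0.11, adjusted p = 0.0619). DESeq2 called it at an adjusted p of 0.0372, edgeR called it once C CM replicate 3 was dropped (0.44 on the log2 scale, adjusted p = 0.0234), and the authors' deposited table lists it at 0.34 with an adjusted p of 0.049. Of the 75-base windows of its longest transcript, 23.1% also occur in transcripts of other genes. Most of these are in Gm7049, a symbol not found among the deposited genes.

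Among the elongases, Elovl6 rose (ENSMUSG00000041220.10, chromosome 3, 129532355 to 129638495, plus strand). It had 12.1, 14.1 and 13.6 CPM after AC CM, against 7.79, 9.98 and 9.34 CPM after C CM. The groups did not overlap, and the log2 fold change was 0.55 (SE 0.13, adjusted p = 0.0153). The call was lost in smaller sets of libraries: without AC CM replicate 2 it was at 0.51 (adjusted p = 0.0642), without AC CM replicate 3 at 0.53 (adjusted p = 0.0545), and without both at 0.41 (adjusted p = 0.351). The part of hepatocyte transcripts in the Elovl6 values was not tested. Elovl5, which lengthens the polyunsaturated chains between the desaturation steps, fell (ENSMUSG00000032349.13, chromosome 9, 77917364 to 77984519, plus strand). It had 55.5, 57.8 and 58.3 CPM after AC CM, against 68.6, 72.7 and 74.0 CPM after C CM. Again the groups did not overlap, and Elovl5 was at -0.33 on the log2 scale (SE 0.07, adjusted p = 0.0077). The Elovl5 call held in each of the 6 fits that left out 1 library, with adjusted p between 0.00212 and 0.0381, but not without AC CM replicates 2 and 3 together (-0.37, adjusted p = 0.175). Elovl1, which makes very long saturated chains for sphingolipids, had 48.9, 56.4 and 48.0 CPM after AC CM, against 42.5, 49.2 and 45.2 CPM after C CM (ENSMUSG00000006390.15, chromosome 4, 118428093 to 118432953, plus strand). Its groups overlapped and it was not called (log2 fold change 0.16, SE 0.09, adjusted p = 0.234). Elovl1 shares 53 bases with Cdc20 on the opposite strand, and the strand setting of the counting is not stated.

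The levels of the elongases were also set against each other within each library. The ratio of Elovl6 to Elovl5 CPM was 0.217, 0.244 and 0.234 in the AC CM libraries, against 0.114, 0.137 and 0.126 in the C CM libraries. That the groups do not overlap follows from the values of Elovl6 and Elovl5 themselves, so the ratio is given as a description. The ratio of Elovl6 to Fasn was 0.199, 0.188 and 0.198 after AC CM, against 0.0952, 0.148 and 0.146 after C CM, and was higher in 3 of 3 AC CM libraries than in any C CM library. An exact two-sided permutation test gave p = 0.1, the smallest that 3 against 3 libraries allow (0.25 adjusted over the 5 ratios computed). With that limit the test could not pass the threshold used here for any of the 5 ratios, so it decides nothing about them. Elovl6 by itself already separated the groups, so its ratio to Fasn is also given as a description.

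The sequences before the starts of Elovl6, which rose, Elovl5, which fell, and Fasn, which was not called, are shown because these genes share a pathway but differ in their calls. RefSeq (GRCm38.p6) gave a window for 8 of the 10 genes. Each line holds, 5′ to 3′ on the gene's own strand, the 250 bases before the start that RefSeq annotates, with matches to the searched motifs in capitals. Elovl6 lies at chr3:129532136-129532385 (plus strand), Elovl5 at chr9:77917115-77917364 (plus strand) and Fasn at chr11:120824548-120824797 (minus strand).
Elovl6: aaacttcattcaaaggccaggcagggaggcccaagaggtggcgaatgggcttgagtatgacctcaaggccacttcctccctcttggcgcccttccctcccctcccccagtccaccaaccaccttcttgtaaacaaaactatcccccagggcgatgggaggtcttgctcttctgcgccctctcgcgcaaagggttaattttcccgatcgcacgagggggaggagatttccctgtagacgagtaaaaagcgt
Elovl5: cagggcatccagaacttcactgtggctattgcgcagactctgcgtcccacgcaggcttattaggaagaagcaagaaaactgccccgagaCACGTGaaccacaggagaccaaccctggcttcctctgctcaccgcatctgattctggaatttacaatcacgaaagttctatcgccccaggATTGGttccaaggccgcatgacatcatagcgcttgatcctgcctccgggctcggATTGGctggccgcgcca
Fasn: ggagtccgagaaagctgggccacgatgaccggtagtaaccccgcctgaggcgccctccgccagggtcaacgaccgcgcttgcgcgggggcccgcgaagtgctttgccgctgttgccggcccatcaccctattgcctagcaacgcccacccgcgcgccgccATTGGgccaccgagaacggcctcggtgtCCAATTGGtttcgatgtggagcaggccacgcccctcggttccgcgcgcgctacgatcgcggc
The motifs searched on both strands were TCACNCCAC, a sterol regulatory element to which SREBP proteins bind, the E box CACGTG, the NF-Y box CCAAT (read as ATTGG on the other strand) and the Sp1 box GGGCGG. Elovl6 held none of them before its start. Elovl5 held the E box, 161 bases before the start, and CCAAT boxes beginning 71 and 17 bases before it. Fasn held CCAAT boxes beginning 90, 62 and 59 bases before its start, the last pair overlapping. Over the whole windows, which run on a short way past the start and number 10 for these 8 genes, CCAAT was in 5 of 10 windows (37.4% of 32851 windows of all genes), GGGCGG in 5 of 10 (35.7%), CACGTG in 1 of 10 (7.15%) and TCACNCCAC in 0 of 10 (1.24%). These are matches of letters and do not show binding. Nor does the lack of a match show that a site is absent, since sites may differ in letters or lie outside the windows.

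**Figure D2:**
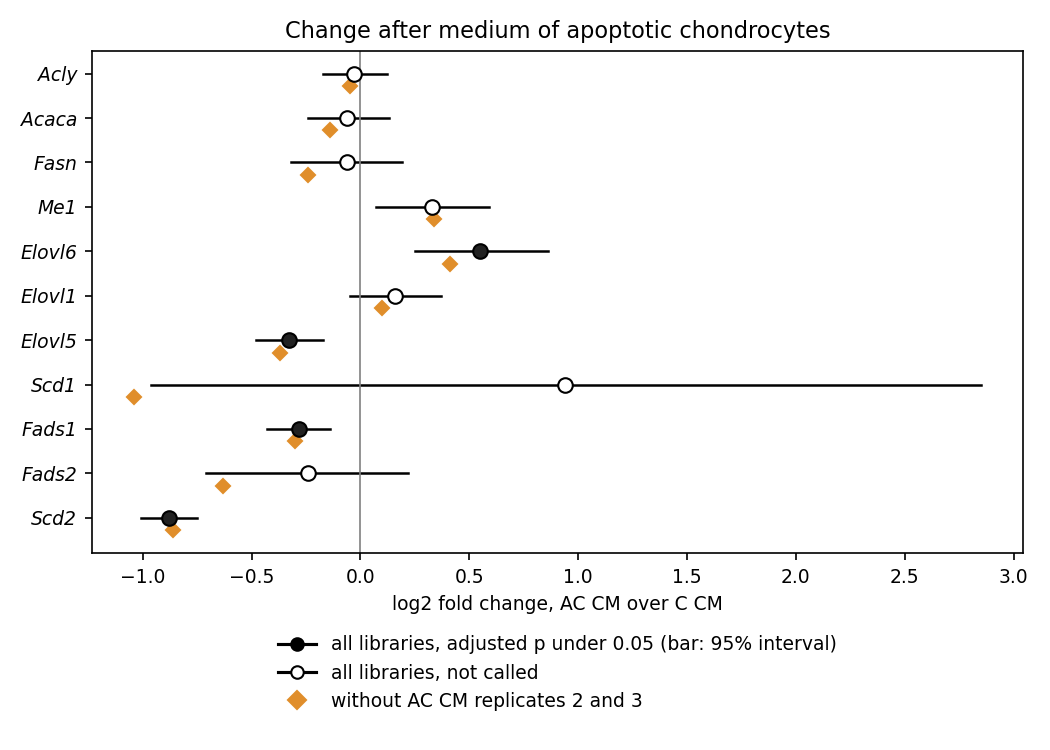
Log2 fold change of the 10 genes and Scd2 in AC CM over C CM, with the 95% interval as a bar (filled circle, adjusted p under 0.05; open circle, not called) and the value with AC CM replicates 2 and 3 left out as a diamond. The bar of Scd1 runs from -0.96 to 2.85 and its diamond lies at -1.04, while Scd2 stays at -0.88 and -0.86.

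Scd1 puts the first double bond into stearate and palmitate, giving oleate and palmitoleate (ENSMUSG00000037071.2, chromosome 19, 44394451 to 44407709, minus strand). It had 9.21, 63.1 and 37.0 CPM in AC CM replicates 1, 2 and 3, against 18.6, 17.7 and 20.4 CPM after C CM. The C CM libraries lay close together, while AC CM replicate 1 was below all of them and AC CM replicates 2 and 3 were above. The coefficient of variation was 73.9% after AC CM and 7.31% after C CM, and 95.5% of all genes tested varied less than Scd1 among the AC CM libraries. The log2 fold change was 0.94 (SE 0.72, adjusted p = 0.412). Without AC CM replicate 2 it was 0.29 (adjusted p = 0.809), without AC CM replicate 1 it was 1.40 (adjusted p = 0.00323), and without replicates 2 and 3 of AC CM it was -1.04 (adjusted p = 0.0221), in a fit in which the single AC CM library borrows its spread from C CM. Scd1 was the 1 member called in that fit. AC CM replicates 2 and 3, the libraries with high Scd1, were also those with 720 and 1672 CPM of hepatocyte markers, although the order between them was turned, with Scd1 higher in replicate 2. The part of hepatocyte transcripts in the Scd1 values was not tested.

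Scd2, a neighbouring desaturase gene with the same reaction that is best known from the brain, was the more abundant in these cells (ENSMUSG00000025203.5, chromosome 19, 44293676 to 44306864, plus strand). It had 147, 141 and 143 CPM after AC CM, against 268, 260 and 267 CPM after C CM. All AC CM libraries lay far below all C CM libraries, the log2 fold change being -0.88 (SE 0.06, adjusted p = 1.61e-05), and -0.86 when AC CM was represented by its replicate 1 alone (adjusted p = 0.00816). Summed over both genes, Scd1 and Scd2 gave 156, 204 and 180 CPM after AC CM, against 286, 277 and 287 CPM after C CM, so that the sum was lower in every AC CM library. The ratio of Scd1 to Scd2 was 0.0628, 0.447 and 0.259 in AC CM replicates 1, 2 and 3, against 0.0697, 0.0683 and 0.0767 in the C CM libraries. AC CM replicate 1 thus lay just below the C CM libraries and the other AC CM libraries above them (exact permutation p = 0.4, 0.625 adjusted over the 5 ratios).

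Because Scd1 and Scd2 behaved unlike each other, a stretch of their coding sequences is shown to let their likeness be seen, 120 bases 5′ to 3′ from GENCODE release M21 transcripts (GRCm38), with the bases that differ in capitals. The Scd1 stretch holds coding bases 142 to 261 and lies at chr19:44406524-44406643 (minus strand), and the Scd2 stretch holds coding bases 151 to 270 and lies at chr19:44295030-44295149 (plus strand).
Scd1: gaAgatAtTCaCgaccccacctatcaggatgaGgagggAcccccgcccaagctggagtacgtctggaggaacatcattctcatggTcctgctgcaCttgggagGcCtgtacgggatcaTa
Scd2: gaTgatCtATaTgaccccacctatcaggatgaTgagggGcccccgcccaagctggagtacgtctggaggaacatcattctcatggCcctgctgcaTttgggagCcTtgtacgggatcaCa
The pair differed at 12 of these 120 bases. Over the aligned coding bases 90.4% were identical, and the longest identical run was 147 bases. Over the whole longest transcripts, 3.24% of the 75-base windows of Scd1 and 1.8% of those of Scd2 also occur in a transcript of another gene. How the authors counted reads that fit both genes is not given in the sources used here.

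**Figure D3:**
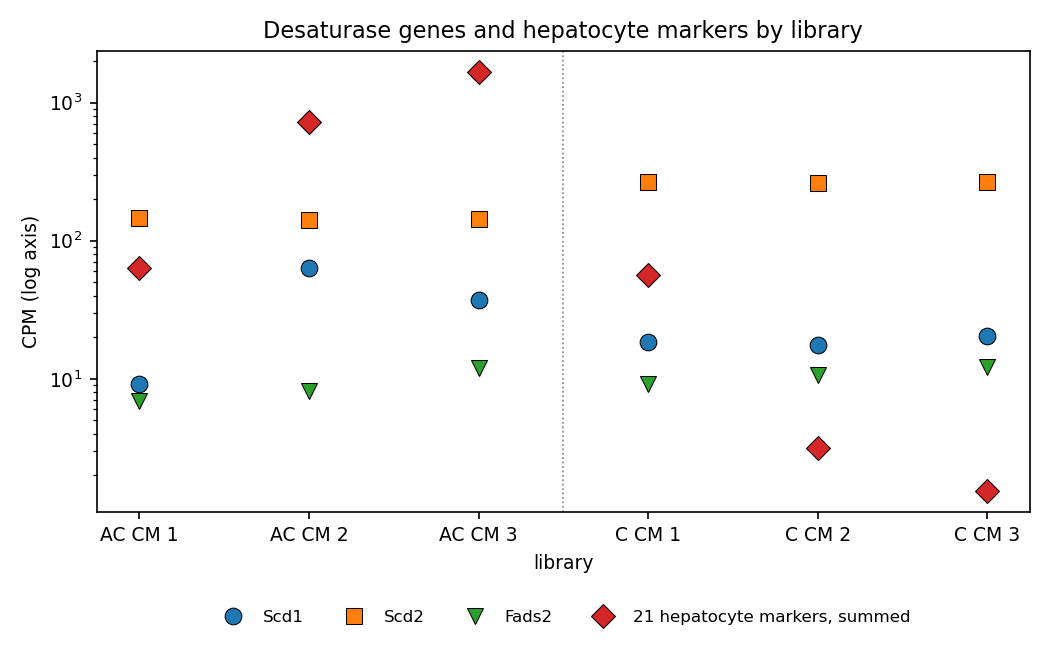
CPM on a log axis of Scd1, Scd2, Fads2 and the sum of 21 hepatocyte markers in each library, AC CM on the left of the dotted line and C CM on the right. Scd2 is level within each group, Scd1 is high in AC CM replicates 2 and 3, and the hepatocyte sum runs from 63.9 to 1672 CPM among the AC CM libraries.

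Fads1 and Fads2 are the desaturases of the polyunsaturated branch, which lie near each other on chromosome 19. Fads2 takes the first step from the essential fatty acids and Fads1 the later step to arachidonic acid. Fads1 fell (ENSMUSG00000010663.4, 10182888 to 10196870, plus strand), with 120, 126 and 118 CPM after AC CM, against 147, 153 and 143 CPM after C CM. The groups did not overlap, and Fads1 was at -0.28 on the log2 scale (SE 0.06, adjusted p = 0.00953). Leaving out AC CM replicate 3 ended the call (-0.26, adjusted p = 0.0586), and so did leaving out both AC CM replicates 2 and 3 (-0.30, adjusted p = 0.234). Fads2 (ENSMUSG00000024665.7, 10064164 to 10101503, minus strand) had 6.93, 8.21 and 11.9 CPM in AC CM replicates 1, 2 and 3, against 9.18, 10.6 and 12.2 CPM after C CM. The groups overlapped through AC CM replicate 3, whose hepatocyte markers summed to 1672 CPM. Fads2 was highest in C CM replicate 3, where these markers summed to 1.55 CPM. The part of hepatocyte transcripts in the Fads2 values was not tested. The log2 fold change was -0.24 (SE 0.20, adjusted p = 0.427), and it moved between -0.49 without AC CM replicate 3 and -0.09 without AC CM replicate 1, with -0.14 without C CM replicate 3. It was called in none of the 6 fits that left out 1 library (adjusted p between 0.0932 and 0.808), nor with AC CM replicate 1 alone (-0.63, adjusted p = 0.194). The ratio of Fads2 to Fads1 averaged 0.0743 ± 0.0226 after AC CM and 0.0722 ± 0.0115 after C CM (SD, n = 3 each), with an exact permutation p of 1.

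Per kilobase of exon, Acly was the most abundant of the 10 genes, with a mean level of 36.2 ± 0.963 CPM per kilobase after AC CM and 36.9 ± 1.89 after C CM (SD, n = 3 each). Fads1 followed at 25.2 ± 0.821 after AC CM and 30.7 ± 1.01 after C CM. Elovl1 and Elovl5 came next and changed places, with levels of 18.7 ± 1.69 and 16.2 ± 0.418 after AC CM, against 16.7 ± 1.24 and 20.4 ± 0.796 after C CM. Scd1 stood at 7.45 ± 5.51 after AC CM and 3.87 ± 0.283 after C CM. Fasn stood at 6.23 ± 0.668 after AC CM and 6.5 ± 0.863 after C CM, and Me1 at 5.66 ± 0.234 after AC CM and 4.49 ± 0.577 after C CM. After AC CM, Scd1, Fasn and Me1 were not separated beyond their spread. Fads2, Acaca and Elovl6 were lowest, at 2.73 ± 0.776, 2.49 ± 0.181 and 2.06 ± 0.166 after AC CM, against 3.23 ± 0.455, 2.59 ± 0.128 and 1.41 ± 0.175 after C CM. Scd2, at 26.3 CPM per kilobase after AC CM and 48.4 after C CM, exceeded Scd1 in both groups. These levels divide by all exon bases annotated for a gene, which understates genes with many long transcript forms such as Acaca.

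Summed over the 10 genes, CPM came to 565, 666 and 605 after AC CM, against 624, 648 and 623 after C CM. Without Scd1 the sums were 556, 603 and 568 CPM after AC CM, against 605, 630 and 603 CPM after C CM, so that AC CM replicates 1 and 3 lay below every C CM library and AC CM replicate 2 was at the C CM minimum.

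The remaining genes of synthesis, elongation and desaturation also moved in both directions. Of 26 such genes 23 were tested, with 3 called higher, 4 lower and 16 not called, and their median log2 fold change was -0.1. The share called was near that of all genes tested (13.3% higher, 13.3% lower, 26.5% in all). Scd2 was among those that fell, as was Hacd4, a member of the family that removes water in each round of elongation, which averaged 166 ± 3.23 CPM after AC CM and 301 ± 35.2 CPM after C CM (SD, n = 3 each; log2 fold change -0.86, adjusted p = 0.000172). Its relatives Hacd2 and Hacd3 rose, by 0.48 (adjusted p = 0.0114) and 0.41 (adjusted p = 0.0053) on the log2 scale. Acss2, which makes cytosolic acetyl-CoA from acetate, had 2.63, 4.31 and 4.19 CPM after AC CM, against 7.11, 8.38 and 8.11 CPM after C CM. Every AC CM library was lower (log2 fold change -1.08, adjusted p = 0.00461), and the value with AC CM replicate 1 alone was -1.59 (adjusted p = 0.0124). Acss2 overlaps Gss on the opposite strand, so that reads from shared bases cannot be told apart if the counting ignored strand. Hacd4 overlaps Focad and Oxsm overlaps Ngly1 in the same way. Of genes named below, so do, among others, G6pdx with Ikbkg, Acsl5 with Zdhhc6 and Mboat7 with Tsen34. Oxsm, an enzyme of the mitochondrial synthesis route, was lower (-0.34, adjusted p = 0.0395), and Cyb5a, the cytochrome b5 that passes electrons to the desaturases, was higher (0.22, adjusted p = 0.0409). The Oxsm and Cyb5a calls were lost on leaving out any 1 library other than C CM replicate 1 (adjusted p between 0.0804 and 0.162), and that of Hacd2 on leaving out AC CM replicate 1 (adjusted p = 0.0548). With AC CM replicate 1 alone, the calls of Scd2, Hacd4 and Acss2 held and the others were lost, as were most calls over all genes.

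Hsd17b12, the ketoreductase of the elongation cycle, had 185, 178 and 203 CPM after AC CM, against 58.4, 122 and 54.4 CPM after C CM. Its groups did not overlap, but the C CM libraries were spread widely and it was not called (log2 fold change 1.27, SE 0.36, adjusted p = 0.0599). DESeq2 called it (adjusted p = 0.00979), as did edgeR without C CM replicate 2 (1.74, adjusted p = 6.35e-05). Elovl2, an elongase of long polyunsaturated chains that is strong in liver, had 0.17, 1.81 and 3.06 CPM in AC CM replicates 1, 2 and 3, against 0.122, 0.468 and 0.119 CPM after C CM. Its level was thus highest in the AC CM libraries with the most hepatocyte transcripts, whose part in it was not tested, and it was not called (2.82, adjusted p = 0.1). DESeq2 called it (adjusted p = 0.00373), as did edgeR without AC CM replicate 1 (3.35, adjusted p = 0.00749), while the value with AC CM replicate 1 alone was -0.47. Slc25a1, the mitochondrial citrate carrier (-0.16, adjusted p = 0.372), the second carboxylase Acacb (-0.42, adjusted p = 0.248), Fads3 (-0.22, adjusted p = 0.11), Elovl4 (-0.72, adjusted p = 0.293) and Elovl7 (-0.10, adjusted p = 0.905) were not called, although Fads3 was once C CM replicate 2 was dropped (-0.31, adjusted p = 0.03). Elovl3 had too few counts to test, and Olah and Scd3 had no count in any library.

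**Figure D4:**
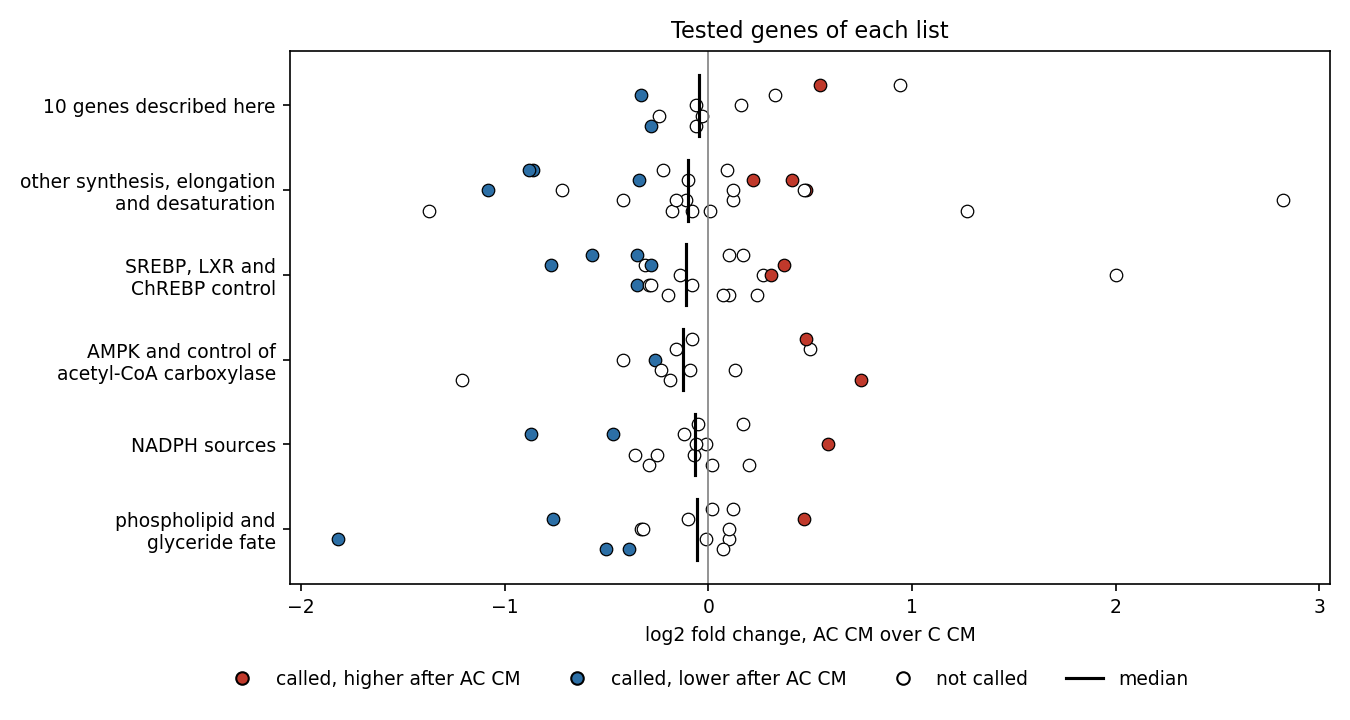
Log2 fold change in AC CM over C CM of every tested gene of the 10 members and of 5 related lists, 1 point per gene. Points are red if called higher, blue if called lower and white if not called, with a black bar at each list's median. The medians lie between -0.04 and -0.12, and each list holds called genes on both sides of 0.

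Of the genes that control this pathway through SREBP, LXR and ChREBP, 20 of 21 were tested. Their median log2 fold change was -0.11, with 2 called higher, 5 lower and 13 not called. Beside this, 13.3% of all genes tested were called higher and 13.3% lower. Srebf1, which encodes SREBP1, had 58.8, 60.2 and 59.9 CPM after AC CM, against 85.8, 66.0 and 65.2 CPM after C CM. Its groups did not overlap, C CM replicate 1 lay well above the other C CM libraries, and Srebf1 was not called (-0.28, SE 0.11, adjusted p = 0.0904). Without C CM replicate 1 the value was -0.14. Srebf2, which encodes the SREBP of cholesterol synthesis, averaged 141 ± 0.629 CPM after AC CM and 114 ± 15.8 CPM after C CM (SD, n = 3 each) and was called higher (0.31, adjusted p = 0.0428). That call was lost in each fit that left out 1 library other than C CM replicate 1, with adjusted p between 0.105 and 0.124. Mbtps2, a protease that frees SREBP from the membrane, rose (0.37, adjusted p = 0.00815), while the anchors and the escort Insig1 (0.10, adjusted p = 0.39), Insig2 (-0.08, adjusted p = 0.619) and Scap (-0.20, adjusted p = 0.216) were not called.

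The E-box factors Usf1 (-0.77, adjusted p = 0.000434) and Usf2 (-0.35, adjusted p = 0.0129) fell, as did the LXR partners Rxrb (-0.57, adjusted p = 0.00227) and Rxra (-0.28, adjusted p = 0.0178) and the glucose-sensing factor Mlxip (-0.35, adjusted p = 0.0114). The LXR genes themselves were not called, with Nr1h2 at -0.29 (adjusted p = 0.0626) and Nr1h3 at 0.27 (adjusted p = 0.151). DESeq2 did call Nr1h2 (adjusted p = 0.0457), and edgeR called Nr1h3 when C CM replicate 1 was dropped (0.37, adjusted p = 0.0486). The Rxra call was lost without AC CM replicate 1 (adjusted p = 0.0696) or 3 (adjusted p = 0.0911), and that of Usf2 without AC CM replicate 2 (adjusted p = 0.0572) or 3 (adjusted p = 0.0563). Mlxipl, which encodes ChREBP (2.00, adjusted p = 0.212), and Mid1ip1, whose protein activates acetyl-CoA carboxylase (0.10, adjusted p = 0.548), were not called either. Mlxipl was near the floor, with 0.156, 0.802 and 0.552 CPM in AC CM replicates 1, 2 and 3, against 0.061, 0 and 0.313 CPM after C CM. Thrsp, a lipogenic gene of liver and fat, had 0.0426, 1.36 and 1.32 CPM in AC CM replicates 1, 2 and 3 and no count after C CM. Too few libraries held enough counts for it to pass the filter, so it was not tested here. The authors' deposited table lists it at 8.38 on the log2 scale with an adjusted p of 1.8e-06. Both Mlxipl and Thrsp were highest in AC CM replicates 2 and 3, the libraries with the most hepatocyte transcripts, whose part in them was not tested. With AC CM replicate 1 alone, the calls among these control genes were lost, as were most calls over all genes. Usf1 was at -0.66 in that fit, against -0.77 with all libraries.

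AMP-activated protein kinase (AMPK) switches acetyl-CoA carboxylase off by phosphorylation. Of 12 genes of this switch, all tested, 2 were called higher and 1 lower, with a median log2 fold change of -0.12. Over all genes tested, the shares called were 13.3% higher and 13.3% lower. Prkaa1, a catalytic subunit, averaged 89.2 ± 3.4 CPM after AC CM and 63.9 ± 6.56 CPM after C CM (SD, n = 3 each; 0.48, adjusted p = 0.00371). Brca1, whose protein binds phosphorylated carboxylase besides its part in DNA repair, rose (0.75, adjusted p = 0.00438). Cpt1a, the carnitine transferase that malonyl-CoA inhibits, fell (-0.26, adjusted p = 0.0191), a call lost without C CM replicate 2 or any 1 of the AC CM libraries (adjusted p between 0.0522 and 0.0838). With AC CM replicate 1 alone, the calls of Prkaa1, Brca1 and Cpt1a were lost, as were most calls over all genes.

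Fasn consumes NADPH. Of 14 genes for its sources, all tested, 1 was called higher and 2 lower, with a median log2 fold change of -0.06. The shares over all genes tested were 13.3% higher and 13.3% lower. G6pdx, the first enzyme of the pentose phosphate route, averaged 251 ± 5.54 CPM after AC CM and 253 ± 13.3 CPM after C CM (SD, n = 3 each; -0.01, interval from -0.15 to 0.13, adjusted p = 0.923), and Pgd was likewise not called (0.02, adjusted p = 0.872). Idh1, the cytosolic isocitrate dehydrogenase, fell (-0.47, adjusted p = 0.00335), as did Nadk, the kinase that makes NADP from NAD (-0.87, adjusted p = 0.00178), whose value with AC CM replicate 1 alone was -1.21. Mthfd1 of folate metabolism rose (0.59, adjusted p = 0.000985). With AC CM replicate 1 alone, the Nadk call held and those of Idh1 and Mthfd1 were lost, as were most calls over all genes.

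Genes that carry new fatty acids into phospholipids and glycerides held the largest called fall of the 6 lists. Of 14 genes tested, 1 was called higher and 4 lower, with a median log2 fold change of -0.06. Beside these counts, 13.3% of all genes tested were called higher and 13.3% lower. Lpin1, the phosphatidate phosphatase that yields diacylglycerol, had 12.8, 13.3 and 12.1 CPM after AC CM, against 45.8, 44.9 and 43.3 CPM after C CM. The groups lay far apart (log2 fold change -1.82, SE 0.08, adjusted p = 2.55e-06), and the value with AC CM replicate 1 alone was -1.81 (adjusted p = 0.00114). Mboat7, which puts arachidonate into phosphatidylinositol, averaged 31.9 ± 1.06 CPM after AC CM and 54.0 ± 4.58 CPM after C CM (SD, n = 3 each; -0.76, adjusted p = 0.000281). Lpcat3, which puts polyunsaturated chains into phosphatidylcholine, was also lower (-0.50, adjusted p = 0.00189). Of the acyl-CoA synthetases, which activate fatty acids, Acsl1 was lower (-0.39, adjusted p = 0.0143) and Acsl5 higher (0.47, adjusted p = 0.000895), the Acsl1 call being lost without AC CM replicate 1 (adjusted p = 0.0658) or 3 (adjusted p = 0.0605). With AC CM replicate 1 alone, the calls of Lpin1 and Mboat7 (-0.82 there) held and the others were lost, as were most calls over all genes.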

How the data were processed

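mRNA libraries of mouse bone marrow macrophages, 3 given AC CM and 3 given C CM, came as 1 gene table. The authors deposited raw read counts per gene, signal values that are those counts divided by a constant per sample, log2 fold changes, and p-values with adjusted p-values. The submitters' processing notes name HISAT2 2.1.0, fastp 0.17.1, R 3.4.3 and DESeq2 1.18.1, with no roles. Which counter, strand setting, build and annotation were used is not given in the sources used here. Of 52550 gene identifiers, 52403 matched GENCODE M21 (GRCm38), 95.2% of them with the same coordinates, and exon lengths, overlaps and transcripts came from it.

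Groups were taken from the treatment label. Counts were tested with edgeR 4.0.16 (R 4.3.3; filterByExpr, TMM, the trimmed mean of M-values scaling, robust quasi-likelihood test, group as the only term), with Benjamini-Hochberg adjustment over 17863 genes and a threshold of 0.05. Fold changes put AC CM over C CM and are log2 values. Their 95% intervals use the SE and the test's total degrees of freedom, residual plus prior. CPM use TMM-scaled library sizes. The test was also tried on simulated counts, whose spread was taken from these same libraries. DESeq2 1.42.0, limma-voom (limma 3.58.1), other filters and scalings, counts divided by 4, a replicate block and fits without single libraries were alternatives. If counts are taken as independent reads, replicate pairs differed on average by more than counting error (chi-square per gene between 27.2 and 63.2). That average need not hold for genes with low counts, and whether the counts are independent reads was not tested. Samples with the same number did not deviate together (correlations of -0.111, -0.0346 and -0.0145), so the block is an alternative only.

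The members and lists were chosen with earlier results of these data known. Named are the members, 21 genes set by name, and up to 3 genes with the smallest p in each other pathway list. Hsd17b12, Hacd2, Hacd3, Oxsm, Cyb5a, Thrsp, Olah, Scd3, Rxra, Mlxip, Usf2, Lpcat3, Acsl1 and the marker genes were named after their values were seen. The hepatocyte sums leave out Hp, which myeloid cells also make. Hp went the other way, with 22.9, 29.7 and 37.7 CPM in AC CM replicates 1, 2 and 3, against 44.0, 40.4 and 39.8 CPM after C CM. With Hp the sums were 86.9, 750 and 1710 CPM in AC CM replicates 1, 2 and 3. In C CM replicates 1, 2 and 3 they were 101, 43.5 and 41.4 CPM. Figures were drawn with matplotlib 3.10.9.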

Additional observations from a re-analysis of the deposited data

How the results depend on the processing

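Without AC CM replicates 2 and 3, where the single AC CM library is assumed to vary as C CM does, 1274 genes were called (510 higher, 764 lower), against 4741 with all libraries (2370 higher, 2371 lower), and 1 member (0 higher, 1 lower), against 3 (1 higher, 2 lower). Fits that left out 1 library called 3158 to 5023 genes (1511 to 2667 higher, 1647 to 2356 lower) and 1 to 4 members (0 to 2 higher, 1 to 2 lower); without AC CM replicate 3 alone the counts were 3158 genes and 1 member. DESeq2 called 5353 genes and 2 members higher, Me1 being added. The replicate block called 4397 genes (2216 higher, 2181 lower) and 3 members (1 higher, 2 lower) and changed no call of the 42 tested genes named by rule, while Oxsm (adjusted p = 0.0623) and Cyb5a (adjusted p = 0.0747) lost theirs under it. The labels share only a number. The other settings called 4389 to 4849 genes. Small values changed sign over the fits that left out 1 library: Acly (-0.05 to 0.01) to 0.01 without C CM replicate 2, Fasn (-0.14 to 0.05) to 0.01 without AC CM replicate 1 and 0.05 without C CM replicate 1, G6pdx (-0.05 to 0.02) to 0.01 without AC CM replicate 3 and 0.02 without C CM replicate 2, Pgd (-0.04 to 0.07) to -0.04 without C CM replicate 3, and Elovl7 (-0.41 to 0.15) to 0.08 without AC CM replicate 2 and 0.15 without C CM replicate 1. Without AC CM replicates 2 and 3, Scd1 turned to -1.04, Elovl2 to -0.47 and Elovl7 to 0.37. Nr1h2 was called with a filter of at least 1 CPM in 3 libraries (adjusted p = 0.0474). For Srebf2 the call was also lost with no filter on low counts (adjusted p = 0.0576). Smaller fits hold fewer samples; otherwise the cause was not tested.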
